A study of Mus musculus with 12 samples.

Results

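The chromatin around 10 genes of the circadian clock and of the PAR bZIP family was followed in germinal center B cells: *Tef*, *Dbp* and *Hlf*, which encode the PAR bZIP activators, *Nfil3*, *Per1*, *Per2*, *Nr1d1*, *Bhlhe40*, *Bhlhe41* and *Arntl*. An accessible region (peak) was counted to a gene when that gene had the nearest protein-coding RefSeq span within 50 kb of the peak's midpoint. This gave 86 of the 68689 peaks, which all have the same length. *Bhlhe40* had 22 of them, *Arntl* 17, *Nfil3* 11, *Tef* 8, *Bhlhe41* 7, *Per1* 6, *Per2* 6, *Nr1d1* 5, *Dbp* 2 and *Hlf* 2. The genes had been singled out chiefly for how their peaks differed between 2 sorted populations, so those differences are given below as a description and are not tested.

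The assay was Omni-ATAC-seq, which uses the transposase Tn5 to cut and tag open DNA. The cells were sorted germinal center B cells, taken from the spleen of C57BL/6 mice at 8 to 10 weeks of age. Germinal center B cells are antigen-activated B cells that alternate between division with antibody mutation and selection for affinity. The 4 groups, of 3 libraries each, were HOMO CC and HOMO CB from Pbrm1-/- mice, and WT CC and WT CB from Pbrm1+/+ mice. The product of *Pbrm1* is found in PBAF and not in the other SWI/SNF chromatin remodelers. The labels do not spell out the letters CC and CB or the prefix Pbrm1AID of the count columns. The sorting gate, the time of day at which cells were taken and the way the allele was made were not given in the labels. Separate mice per library are not stated, so p-values measure the spread between these libraries, which may in part be technical.

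The mammalian clock is a feedback loop of transcription. BMAL1 (the product of *Arntl*) and CLOCK bind E-boxes and drive the *Per* and *Cry* genes, whose proteins inhibit them, and BHLHE40 and BHLHE41 also bind E-boxes, as repressors. REV-ERB alpha (the product of *Nr1d1*) represses *Arntl* and *Nfil3* through ROR elements, and the PAR bZIP factors activate through D-boxes, to which NFIL3 also binds, as a repressor.

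The elements named in this background were looked for in the RefSeq promoter windows (GRCm38.p6, 250 bases before to 50 after an annotated start), on both strands. The table held 11 windows for 8 of the 10 genes, and none for *Bhlhe40* or *Per2*. The E-box CACGTG lay in 4 of the 11 windows, at *Tef*, *Per1* and *Bhlhe41*, and in 7.15% of all 32851 windows. The D-box, searched as TTATGTAA, TTACGTAA or TTATGCAA, lay in 1 window, at *Per1*, and in 1.78% of all windows. The core TAGGTCA of the ROR element lay in 2 windows, at *Arntl* and *Nfil3*, and in 2.61% of all. A match describes the letters only. The matches are shown because they are the elements of the loop found at these genes, each in the gene's direction, with the element in capitals.
Tef E-box, upstream start, chr15:81802519-81802578, plus strand: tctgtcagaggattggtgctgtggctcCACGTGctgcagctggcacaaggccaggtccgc
Tef E-box, downstream start, chr15:81811249-81811308, plus strand: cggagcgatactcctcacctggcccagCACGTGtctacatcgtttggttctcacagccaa
Per1 E-box, chr11:69098756-69098815, plus strand: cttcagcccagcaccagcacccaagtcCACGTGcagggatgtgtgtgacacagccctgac
Per1 D-box, chr11:69098898-69098959, plus strand: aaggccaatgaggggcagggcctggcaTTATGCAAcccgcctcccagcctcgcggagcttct
Bhlhe41 E-box, chr6:145865541-145865600, minus strand: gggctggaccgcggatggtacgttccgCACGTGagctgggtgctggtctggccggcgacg
Arntl ROR element core, chr7:113207530-113207558, plus strand: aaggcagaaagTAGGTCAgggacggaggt
Nfil3 ROR element core, read as its reverse complement, chr13:52981034-52981062, minus strand: gcgctcggaacTGACCTActaacacacat

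The deposited values are raw read counts per peak, given here as CPM, counts scaled to the library total with TMM factors. Library totals ran from 6431354 (HOMO CC 1) to 45590454 (HOMO CB 3), a 7.09-fold range, and the HOMO libraries numbered 1 were the shallowest 2. The WT libraries numbered 2 stood apart at *Xist*, with 4.35 CPM (WT CB 2) and 5.84 CPM (WT CC 2) against 10.8 to 24.8 CPM in the other 10. Results were also computed with each of these pairs of libraries left out. *Pbrm1* had 2 peaks, neither of which passed the test between genotypes, and since the deleted part is not given they do not check the labels. The 12 germinal center B cell marker genes all had peaks, 107 in all. Of 10 T cell markers, 6 had peaks, and *Cd3g*, *Cd8a*, *Cd28* and *Trat1* had none.

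Every gene had at least 1 peak open in all 12 libraries, and the levels of the strongest peaks spanned nearly an order of magnitude. The strongest peak averaged 126.2 ± 11.5 CPM at *Per2*, 112.0 ± 10.2 at *Per1*, 92.1 ± 7.09 at *Tef*, 81.2 ± 4.91 at *Arntl* and 65.5 ± 7.80 at *Nr1d1* (SD, n = 12 libraries). *Nfil3* followed with 44.8 ± 4.16 CPM, *Bhlhe40* with 38.6 ± 6.69, *Dbp* with 33.9 ± 3.33, *Bhlhe41* with 22.5 ± 5.72 and *Hlf* with 13.1 ± 2.43. Each gene's range over libraries overlapped that of the next gene in this order, except that *Nr1d1* (lowest library 54.1 CPM) stayed above *Nfil3* (highest library 52.5 CPM). At *Per2*, *Per1* and *Hlf* the strongest peak lay within 1 kb of an end of the gene. At *Tef*, *Arntl*, *Dbp* and *Nr1d1* it lay inside the gene. At *Nfil3* it lay 41579 bp away, at *Bhlhe40* 29340 bp away and at *Bhlhe41* 2332 bp away, so these peaks belong to the gene by distance alone. The annotated start window of *Dbp* was overlapped only in its upstream part by a peak that counts to *Car11*. That peak had its midpoint 267 bp from *Dbp* and ended before the annotated start. It had 73.9 to 86.8 CPM in HOMO CC, 81.9 to 83.7 in HOMO CB, 71.6 to 84.9 in WT CC and 70.1 to 84.1 in WT CB.

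**Figure D1:**
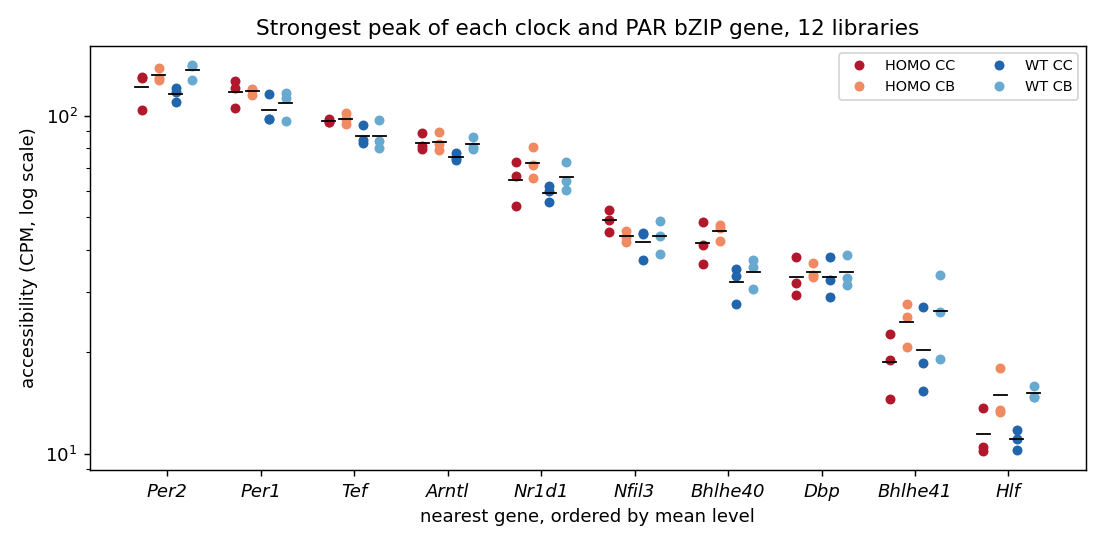
Accessibility (CPM, log axis) of the strongest peak of each gene in the 12 libraries, with genes ordered by mean level. Points are libraries and black lines are group means (n = 3), and the mean over the 12 libraries is highest at Per2 (126.2 CPM) and lowest at Hlf (13.1 CPM).

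In CC against CB, 1 *Tef* peak was much lower in CC, most *Bhlhe40* peaks were higher, most *Bhlhe41* peaks were lower, and a pair of adjacent peaks inside *Arntl* was higher, in both genotypes. The strongest peaks of *Per1*, *Per2*, *Tef* and *Arntl*, the *Nfil3* peak over its annotated start and the stronger *Dbp* peak had mean log2 fold changes between -0.23 and 0. The genes were chosen on this contrast, so the numbers that follow describe it. In HOMO cells 12 of the 86 peaks had an adjusted p under 0.05 in edgeR's quasi-likelihood test, 8 higher and 4 lower in CC, beside 7.22% of all peaks (4.78% higher and 2.44% lower). In WT cells 6 did, 3 higher and 3 lower, beside 5.43% of all peaks (3.35% higher and 2.08% lower). With a term for the library number, which pairs CC with CB, the counts became 27 in HOMO, beside 22.2% of all peaks, and 27 in WT, beside 22.1%. With DESeq2 they were 13 in HOMO, beside 8.24%, and 7 in WT, beside 6.64%, and with log2 library total as a covariate 19, beside 13.1%, and 16, beside 11.4%. The HOMO count was 7 without HOMO CB 1 or HOMO CB 2 and 6 without HOMO CC 2, HOMO CB 3 or HOMO CC 3. Over all peaks the shares were then 5.47%, 4.33%, 2.94%, 3.58% and 4.93%, in the same order. The WT count was 3 without WT CC 2 and 1 with both WT libraries numbered 2 left out. The shares of all peaks were then 2.28% and 0.767%. Nothing about these genes is read from these counts. Over the 86 peaks the median log2 fold change was 0.04 in HOMO and -0.04 in WT, beside -0.00 and -0.03 over all peaks.

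Sums over marker gene peaks moved with the same contrast. The 8 T cell marker peaks had sums of 101.1 to 110.4 CPM in HOMO CC against 77.7 to 83.8 in HOMO CB, and of 104.9 to 114.8 in WT CC against 91.1 to 91.9 in WT CB. The 26 myeloid marker peaks, at 7 of 10 genes with *Lyz2*, *Mpo* and *Elane* at none, summed to 245.6 to 280.9 CPM in HOMO CC against 227.6 to 232.0 in HOMO CB. In WT the myeloid sums overlapped, with 226.8 to 267.3 CPM in CC against 211.1 to 243.8 in CB. The 97 peaks of dark zone genes, which are active in dividing germinal center cells, summed to 1730 to 1810 CPM in HOMO CC against 1979 to 2049 in HOMO CB, and to 1594 to 1637 in WT CC against 1728 to 1835 in WT CB. The 107 germinal center B cell marker peaks summed to 2096 to 2175 CPM in WT CC against 2305 to 2342 in WT CB, and overlapped in HOMO. The 10 erythroid marker peaks, at 4 of 9 genes with *Hba-a1*, *Hbb-bs*, *Gata1*, *Alas2* and *Slc4a1* at none, summed to 153.4 to 157.5 CPM in WT CC against 170.7 to 172.7 in WT CB, and overlapped in HOMO. The natural killer, plasma cell and light zone sums overlapped in both genotypes. A sum can hide single peaks that differ. Of the 122 light zone peaks edgeR called 16 higher and 3 lower in CC in HOMO (15.6%), beside 7.22% of all peaks. In WT it called 9 higher and 3 lower (9.84%), beside 5.43%. Of the 97 dark zone peaks it called 2 higher and 12 lower in HOMO (14.4%), and 1 higher and 8 lower in WT (9.28%). The part of these markers in the results on the clock genes was not tested. In bulk libraries, fewer cells with a site open and a site less open in each cell cannot be told apart.

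**Figure D2:**
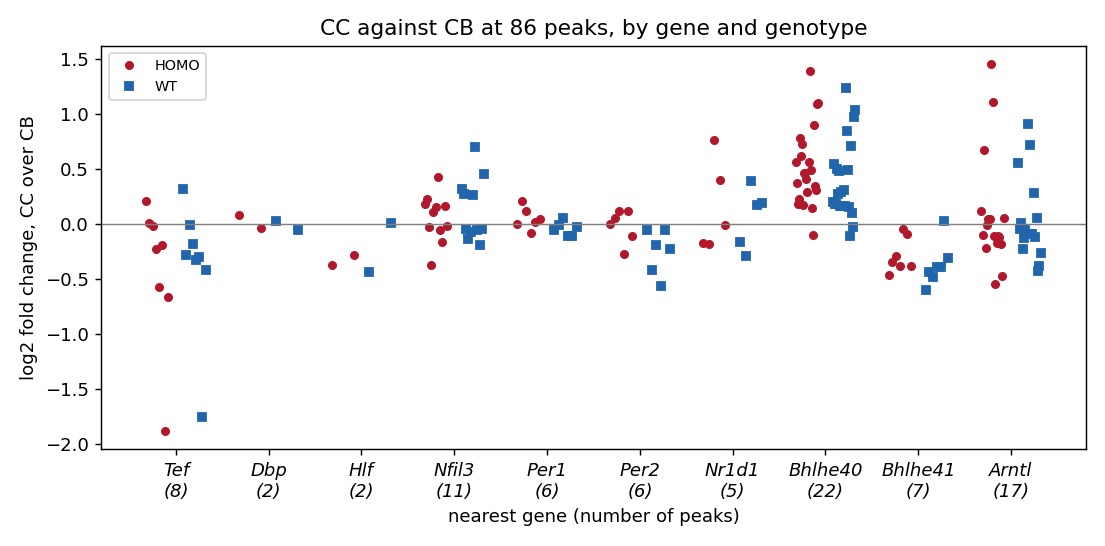
Log2 fold change of CC over CB at each of the 86 peaks, by nearest gene, with HOMO as circles and WT as squares and peaks in order of position within a gene. The lowest points are the Tef peak at -1.88 (HOMO) and -1.75 (WT), most Bhlhe40 points lie above 0, and the Dbp and Per1 points lie close to 0.

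*Tef* encodes a PAR bZIP activator. Its peak at chr15:81832262-81832762 (mm10), 5649 bp beyond the downstream end of the gene and 15758 bp from the next coding gene, *Tob2*, had 8.13, 6.14 and 7.34 CPM in HOMO CC against 27.1, 23.8 and 27.3 CPM in HOMO CB. In WT it had 6.68, 7.76 and 6.60 CPM in CC against 26.1, 22.4 and 22.3 CPM in CB. All 6 CC libraries lay far below all 6 CB libraries, and the genotypes lay together within each population. The log2 fold change was -1.88 (SE 0.15) in HOMO, a 3.68-fold lower level, and -1.75 (SE 0.14) in WT, 3.37-fold lower. Among all 68689 peaks this value ranked 19 from the lowest in HOMO and 18 in WT. Leaving out single libraries kept it between -1.94 and -1.77 in HOMO and between -1.83 and -1.68 in WT.

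The peaks next to it, picked out after their values were seen, differed less. The neighbouring *Tef* peak, with 439 bases between, had 42.7, 37.3 and 38.6 CPM in HOMO CC against 49.9, 43.8 and 41.8 CPM in HOMO CB, and its log2 fold change was -0.19 (SE 0.12) in HOMO and -0.30 (SE 0.12) in WT. The next peak outward, 9733 bp from the gene, had -0.66 (SE 0.19) and -0.42 (SE 0.18). At the gene itself, the strongest peak, over the downstream of the 2 annotated starts and the second E-box printed above, had 97.4, 95.6 and 95.8 CPM in HOMO CC against 97.8, 101.5 and 94.3 CPM in HOMO CB. In WT that peak had 84.5, 82.8 and 93.6 CPM in CC against 84.2, 80.4 and 97.1 CPM in CB. The groups overlapped, at -0.02 (SE 0.08) in HOMO and -0.01 (SE 0.08) in WT. The weaker peak over the upstream start had log2 fold changes of 0.21 (SE 0.23) and 0.32 (SE 0.22).

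**Figure D3:**
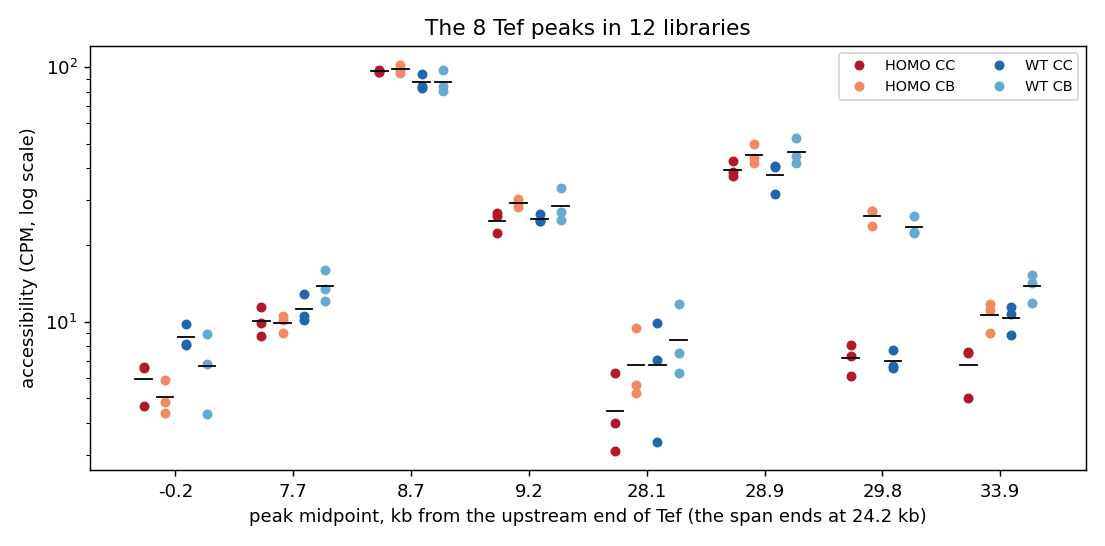
Accessibility (CPM, log axis) of the 8 Tef peaks in the 12 libraries, by the midpoint's distance (kb) from the upstream end of Tef. Points are libraries and black lines group means (n = 3), and at the peak 5649 bp beyond the gene the CC libraries (6.14 to 8.13 CPM) lie below the CB libraries (22.3 to 27.3 CPM).

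The other PAR bZIP genes and *Nfil3* showed smaller differences. *Hlf*, another PAR bZIP activator, had 10.2, 10.5 and 13.7 CPM at its start peak in HOMO CC against 13.5, 13.3 and 17.9 CPM in HOMO CB. In WT that peak had 10.3, 11.1 and 11.8 CPM in CC against 15.9, 14.7 and 14.7 CPM in CB. The groups overlapped in HOMO and did not in WT, and the log2 fold change was -0.37 (SE 0.16) in HOMO and -0.44 (SE 0.16) in WT. *Dbp*, the third member of that family, had 29.4, 32.1 and 38.3 CPM at its stronger peak in HOMO CC against 33.8, 33.4 and 36.6 CPM in HOMO CB, a log2 fold change of -0.04 (SE 0.12), and -0.06 (SE 0.12) in WT. At the *Nfil3* start peak that holds the ROR element core, the level was 38.7, 40.5 and 45.5 CPM in HOMO CC against 34.2, 45.3 and 47.2 CPM in HOMO CB, at -0.03 (SE 0.14), and -0.05 (SE 0.14) in WT. Among the 11 *Nfil3* peaks the largest mean difference was at a weak peak 15828 bp away, at 0.43 (SE 0.25) in HOMO and 0.70 (SE 0.25) in WT. It had 5.32, 4.39 and 3.80 CPM in HOMO CC against 4.32, 2.52 and 3.36 CPM in HOMO CB, and 4.58, 7.04 and 5.80 CPM in WT CC against 4.54, 2.52 and 3.42 CPM in WT CB.

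*Bhlhe40* encodes a basic helix-loop-helix repressor induced by many stimuli in lymphocytes. Of its 22 peaks, 21 had a positive log2 fold change of CC over CB in HOMO (median 0.46) and 20 in WT (median 0.28). Among all 68689 peaks 49.2% were positive in HOMO and 46.2% in WT. Peaks of a single locus are not independent of each other. The peak at the gene's lower-coordinate end had 38.1, 42.7 and 45.1 CPM in HOMO CC against 28.7, 31.8 and 31.5 CPM in HOMO CB, and 37.3, 40.9 and 43.7 CPM in WT CC against 34.1, 26.2 and 38.7 CPM in WT CB. The groups were apart in HOMO and overlapped in WT, with log2 fold changes of 0.46 (SE 0.12) and 0.29 (SE 0.12).

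A pair of distal peaks, picked out after their values were seen, was higher in CC in every library. The peak at chr6:108710637-108711137, 43962 bp from the gene, had 17.7, 21.1 and 21.4 CPM in HOMO CC against 8.25, 10.4 and 9.46 CPM in HOMO CB, and 13.5, 16.2 and 13.8 CPM in WT CC against 6.88, 6.30 and 8.66 CPM in WT CB. Its log2 fold change was 1.09 (SE 0.15) in HOMO and 0.97 (SE 0.16) in WT, which is 2.13-fold and 1.95-fold higher. The adjacent peak at chr6:108711614-108712114 had 19.5, 20.9 and 21.3 CPM in HOMO CC against 5.24, 12.4 and 9.75 CPM in HOMO CB, and 15.6, 18.5 and 17.8 CPM in WT CC against 8.68, 8.48 and 8.32 CPM in WT CB. At both peaks every CC library lay above every CB library of its genotype. The largest mean difference was at a peak 21609 bp away, with 5.47, 7.30 and 7.24 CPM in HOMO CC against 1.96, 2.71 and 2.80 CPM in HOMO CB. In WT that peak varied between libraries, with 5.20, 5.48 and 12.2 CPM in CC against 3.27, 1.72 and 7.13 CPM in CB. Each CC library lay above the CB library of its number in both genotypes. The log2 fold changes were 1.39 (SE 0.41) in HOMO and 0.84 (SE 0.39) in WT. With the library-number term they were 1.41 (SE 0.18) and 0.90 (SE 0.18). The strongest *Bhlhe40* peak was an exception, at -0.10 (SE 0.12) and -0.11 (SE 0.12). The 50 kb limit cut through this cluster of peaks. The nearest peaks beyond it, 50898 and 52079 bp away, had log2 fold changes of 0.61 and 0.62 in HOMO and 0.42 and 0.41 in WT. Of all member peaks inside the limit, those farthest from their gene lay outside this cluster. A *Bhlhe40* peak on the lower-coordinate side, 48786 bp away, had 0.56 in HOMO and 0.20 in WT. The *Arntl* peak 46127 bp away had 0.12 and 0.55.

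*Bhlhe41* encodes a close relative of BHLHE40. All 7 of its peaks had a negative log2 fold change in HOMO (median -0.35) and 6 of 7 in WT (median -0.39). The peak at chr6:145845432-145845932, 12561 bp beyond the gene's downstream end, had 20.7, 18.8 and 17.1 CPM in HOMO CC against 29.7, 24.3 and 24.0 CPM in HOMO CB. In WT it had 20.4, 16.7 and 16.9 CPM in CC against 30.5, 26.1 and 25.0 CPM in CB. The CC libraries lay below the CB libraries in both genotypes, at -0.46 (SE 0.13) and -0.60 (SE 0.13). The start peak that holds the E-box printed above was weak, with 2.37, 3.31 and 3.94 CPM in HOMO CC against 4.58, 3.91 and 4.73 CPM in HOMO CB, at -0.38 (SE 0.24), and -0.31 (SE 0.24) in WT.

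**Figure D4:**
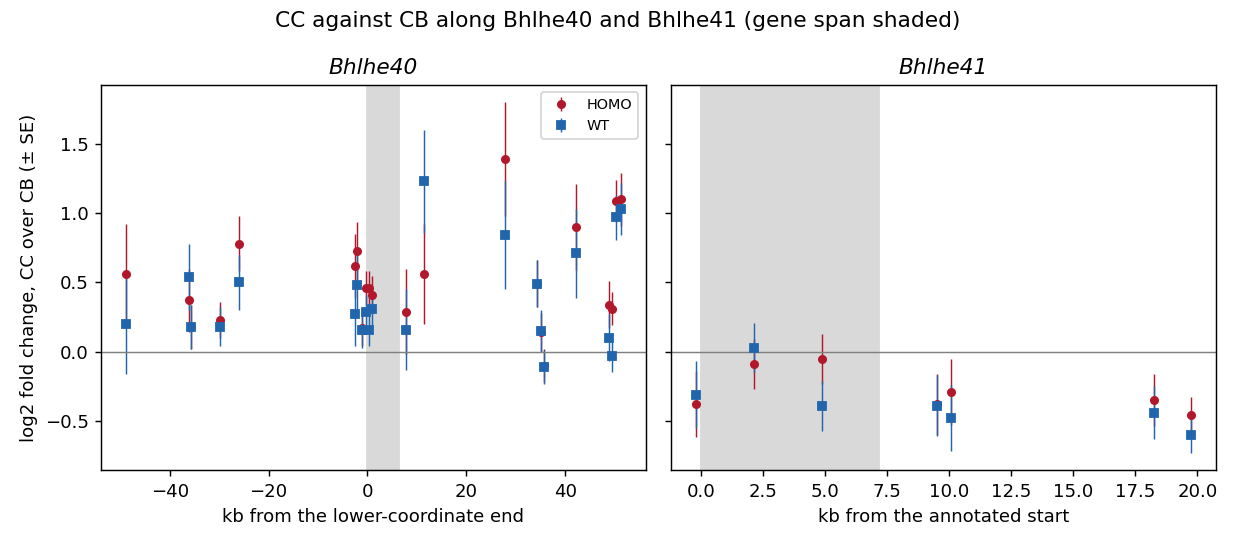
Log2 fold change of CC over CB (± SE) at the 22 Bhlhe40 and 7 Bhlhe41 peaks, plotted by distance in kb from the lower-coordinate end of Bhlhe40 and from the annotated start of Bhlhe41, with HOMO as circles, WT as squares and the gene span shaded. Bhlhe40 peaks lie mostly above 0 and reach 1.39 in HOMO at the peak 21609 bp from the gene, and Bhlhe41 peaks lie mostly below 0.

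*Arntl* encodes BMAL1, the partner of CLOCK. Its strongest peak ended just upstream of the annotated starts and of the ROR element core printed above. It had 88.6, 81.1 and 79.9 CPM in HOMO CC against 89.5, 79.0 and 82.5 CPM in HOMO CB. In WT it had 73.9, 75.1 and 77.7 CPM in CC against 81.0, 79.5 and 86.5 CPM in CB. It was level in HOMO, at -0.01 (SE 0.08), and slightly lower in CC in WT, at -0.13 (SE 0.08). Inside the gene, 63458 bp from its upstream end, the peak at chr7:113241679-113242179 had 7.84, 7.26 and 6.47 CPM in HOMO CC against 2.75, 2.98 and 2.15 CPM in HOMO CB. In WT it had 5.36, 7.10 and 5.77 CPM in CC against 3.76, 3.55 and 2.55 CPM in CB. The CC libraries were above the CB libraries in both genotypes, with log2 fold changes of 1.45 (SE 0.22) in HOMO and 0.91 (SE 0.22) in WT. A second peak with 95 bases between had 1.11 (SE 0.22) and 0.72 (SE 0.22). Farther along the gene, a pair of peaks, also picked out after their values were seen, was lower in CC, at -0.18 (SE 0.11) and -0.47 (SE 0.13) in HOMO and -0.43 (SE 0.11) and -0.38 (SE 0.13) in WT.

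*Per1* and *Per2* encode the inhibitors of CLOCK and BMAL1. At *Per1* the peak at the gene's upstream end had 105.4, 120.6 and 126.8 CPM in HOMO CC against 115.3, 119.5 and 119.4 CPM in HOMO CB, and 97.8, 97.9 and 115.8 CPM in WT CC against 96.5, 112.5 and 117.0 CPM in WT CB. The groups overlapped, at -0.00 (SE 0.09) and -0.06 (SE 0.09). The *Per1* peak that holds the printed E-box and D-box had -0.08 (SE 0.09) and -0.11 (SE 0.09), and the 6 *Per1* peaks ranged over -0.08 to 0.21 in HOMO and -0.11 to 0.05 in WT. At *Per2* the strongest peak had 103.8, 129.3 and 130.2 CPM in HOMO CC against 138.4, 127.6 and 129.1 CPM in HOMO CB, and 117.8, 109.7 and 120.8 CPM in WT CC against 127.7, 140.9 and 139.7 CPM in WT CB. The groups overlapped in HOMO and did not in WT, at -0.11 (SE 0.09) and -0.23 (SE 0.09). The *Per2* peak with the largest mean difference was a weak intragenic peak, at -0.27 (SE 0.24) and -0.56 (SE 0.23). At *Nr1d1* the largest mean difference was at a weak peak 517 bp upstream of the start, higher in CC. Its groups were apart in HOMO and overlapped in WT, at 0.76 (SE 0.24) and 0.39 (SE 0.22). With the library-number term these were 0.79 (SE 0.14) and 0.41 (SE 0.13). The strongest *Nr1d1* peak had -0.17 (SE 0.11) in HOMO and -0.16 (SE 0.11) in WT.

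Loss of *Pbrm1* was the second comparison. The genes were chosen chiefly on CC against CB, but with results of all 4 groups known. In CC, 2 of the 86 peaks fell in HOMO against WT and 0 rose, which is 2.33% beside 2.75% of all peaks called (2.17% lower and 0.578% higher). In CB, 3 fell and 0 rose, which is 3.49% beside 4.63% of all peaks (3.85% lower and 0.779% higher). Taken over both directions, these edgeR shares are no higher than the background. For the lower direction alone, 2.33% in CC is near the 2.17% of all peaks, and 3.49% in CB is near the 3.85%. DESeq2 called 7 in CC (5 lower, 2 higher), beside 4.55% of all peaks, and 6 in CB (4 lower, 2 higher), beside 6.13%, and with log2 library total as a covariate the counts were 9, beside 8.42%, and 13, beside 11.8%. The median log2 fold change over the 86 peaks was 0.06 in CC and -0.03 in CB, beside 0.02 and 0.01 over all peaks. At an unadjusted p under 0.05, 10 of the 86 were lower and 6 higher in CC, beside 9.95% and 7.22% of all peaks, and 11 were lower and 6 higher in CB, beside 12.5% and 7.26%. All peaks that edgeR called lay at *Nr1d1*, which encodes the heme-binding nuclear receptor and repressor REV-ERB alpha. Of all gene-end peaks in the series, 5.59% were called lower in CC and 9.19% in CB.

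Marker sums also differed between the genotypes. The germinal center B cell marker peaks summed to 2238 to 2570 CPM in HOMO CC against 2096 to 2175 in WT CC, and to 2466 to 2592 in HOMO CB against 2305 to 2342 in WT CB. The dark zone sums given above were also higher in every HOMO library than in every WT library of its population. In CB the T cell sums given above were lower in every HOMO library, and the 10 erythroid marker peaks summed to 157.0 to 163.5 CPM in HOMO CB against 170.7 to 172.7 in WT CB. In CC the T cell and erythroid sums overlapped, and the myeloid, natural killer, plasma cell and light zone sums overlapped in both populations. Their part in the genotype results was not tested.

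The strongest *Nr1d1* peak, inside the gene 1365 bp from its start, did not pass the test. It had 54.1, 66.2 and 72.8 CPM in HOMO CC against 59.9, 55.6 and 62.0 CPM in WT CC, and 65.6, 71.3 and 80.5 CPM in HOMO CB against 60.3, 64.1 and 73.1 CPM in WT CB. The log2 fold change was 0.13 (SE 0.11; edgeR adjusted p = 0.574) in CC and 0.14 (SE 0.11; adjusted p = 0.499) in CB. The next peak toward the start, at chr11:98774697-98775197 with its midpoint 430 bp inside the gene, fell in both populations. It had 6.95, 4.28 and 6.05 CPM in HOMO CC against 12.1, 9.63 and 11.4 CPM in WT CC, and 9.30, 5.04 and 5.78 CPM in HOMO CB against 16.3, 10.9 and 12.9 CPM in WT CB. Every HOMO library lay below every WT library of its population. The log2 fold change was -0.98 (SE 0.22; edgeR adjusted p = 0.0234) in CC and -1.09 (SE 0.22; adjusted p = 0.00856) in CB.

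The other 3 *Nr1d1* peaks lie upstream of the start, within the span of the long noncoding RNA gene *Gm31862*. The peak 517 bp upstream, at chr11:98775644-98776144, had 4.19, 3.80 and 5.36 CPM in HOMO CB against 9.85, 6.64 and 12.3 CPM in WT CB and fell there, by a log2 fold change of -1.13 (SE 0.24; edgeR adjusted p = 0.0103). In CC it had 5.62, 7.30 and 9.19 CPM in HOMO against 12.2, 10.2 and 16.2 CPM in WT, at -0.76 (SE 0.23; adjusted p = 0.0726). The peak 7502 bp upstream was the weakest. It fell in CB, with 1.96, 1.14 and 1.05 CPM in HOMO CB against 2.98, 3.55 and 3.15 CPM in WT CB, at -1.35 (SE 0.31; edgeR adjusted p = 0.0180). In CC it had 2.37, 1.97 and 1.03 CPM in HOMO against 4.27, 3.37 and 3.22 CPM in WT, at -1.12 (SE 0.31; adjusted p = 0.0537). The peak 8074 bp upstream fell in CC, with 6.65, 5.14 and 4.89 CPM in HOMO CC against 12.4, 9.27 and 10.2 CPM in WT CC, at -0.98 (SE 0.23; edgeR adjusted p = 0.0282). In CB it had 9.04, 3.99 and 4.69 CPM in HOMO against 9.66, 9.74 and 8.66 CPM in WT, at -0.78 (SE 0.23; adjusted p = 0.0601), and the shallow HOMO CB 1 reached into the WT range. DESeq2 called the 4 weak peaks lower in both populations, with adjusted p = 0.0344 for the peak 517 bp upstream in CC, 0.0296 for that 7502 bp upstream in CC and 0.0414 for that 8074 bp upstream in CB. The 4 weak peaks had lower means in HOMO in both populations. Over all 86 peaks every HOMO library lay below every WT library at 9 in CC, beside 11.2% of all peaks, and at 11 in CB, beside 13.2%. Every HOMO library lay above every WT library at 14 of the 86 in CC and at 6 in CB. For that direction the share of all peaks was not computed.

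**Figure D5:**
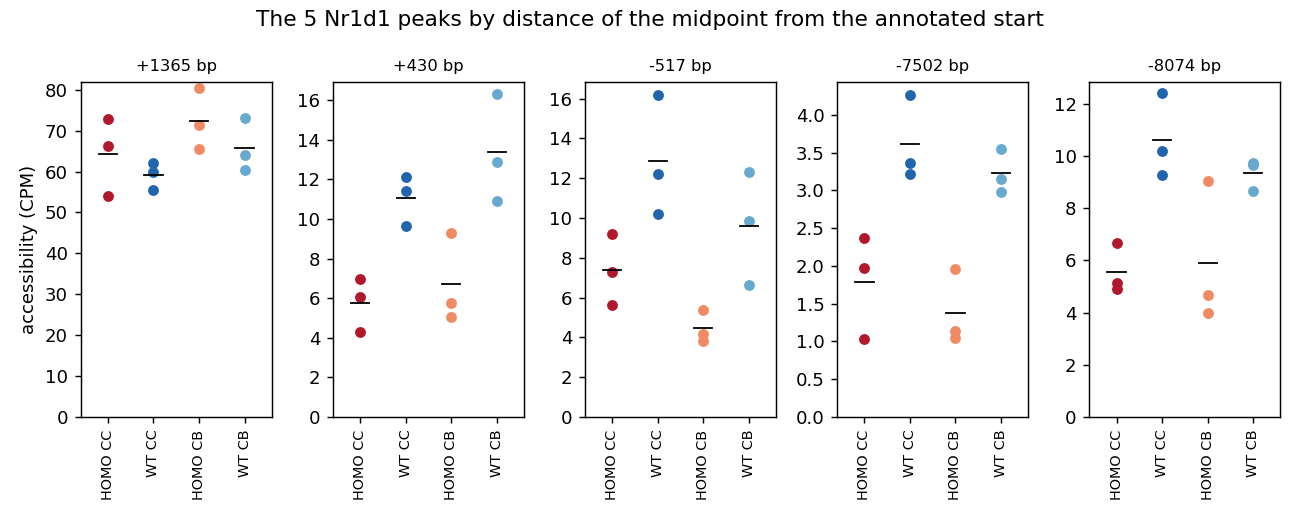
Accessibility (CPM, linear axes from 0 with a scale of their own) of the 5 Nr1d1 peaks, ordered by the midpoint's distance from the annotated start, with positive distances inside the gene. Points are libraries and black lines means (n = 3); the HOMO means lie below the WT means at the 4 weak peaks, and the groups overlap at the strong peak 1365 bp inside.

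The *Nr1d1* calls depended on single libraries, though no left-out library changed a direction. Calls over all peaks fell too in several of these settings. In CC they went from 2.75% to 0.0247% without HOMO CC 2, 0.319% without HOMO CC 3 and 0.48% without WT CC 1. In CB they went from 4.63% to 0.496% without HOMO CB 2, 1.01% without WT CB 1 and 1.17% without HOMO CB 3. The call at 430 bp in CC was lost without WT CC 1 (edgeR adjusted p = 0.0923), WT CC 3 (0.0550), HOMO CC 2 (0.211) or HOMO CC 3 (0.0780), and in CB without WT CB 1 (0.0695), HOMO CB 2 (0.0949) or HOMO CB 3 (0.0603). The call 517 bp upstream in CB was lost without HOMO CB 2 (0.101), WT CB 1 (0.0517) or WT CB 3 (0.0505). That 7502 bp upstream was lost without WT CB 1 (0.0639), HOMO CB 2 (0.130) or HOMO CB 3 (0.117). That 8074 bp upstream in CC was lost without WT CC 1 (0.122), WT CC 2 (0.0542), WT CC 3 (0.0518), HOMO CC 2 (0.191) or HOMO CC 3 (0.138). Of the peaks not called, the one 517 bp upstream passed in CC without WT CB 3 (0.0495). The one 7502 bp upstream passed in CC without HOMO CB 1 (0.0384) or HOMO CC 1 (0.0256). The one 8074 bp upstream passed in CB without HOMO CB 1 (0.00401) or HOMO CC 1 (0.0489). With both HOMO libraries numbered 1 left out, 7 peaks were called in CC and 5 in CB, beside 6.47% and 7.14% of all peaks. With both WT libraries numbered 2 left out the counts were 0 and 2, beside 0.473% and 2.42%. The count in CC was 6 without HOMO CC 1 and 4 without WT CB 3, beside 4.97% and 3.5% of all peaks. In CB it was 6 without HOMO CC 1 and 5 without HOMO CB 1, beside 5.98% and 5.42%. Of 14 other peaks within 50 kb of *Nr1d1*, which count to its neighbours, 2 fell in CC and 3 in CB. Over all peaks 2.17% were called lower in CC and 3.85% in CB. Falls at this locus were thus not confined to the peaks of *Nr1d1*. The median log2 fold change of the 14 was -0.11 in CC and -0.07 in CB.

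No peak covered the annotated start window of *Nr1d1*. The peak 430 bp inside the gene and the one 517 bp upstream flank it, with 446 bases between them. The upstream bases of that window are shown because they lie between the peaks that changed. They hold no CACGTG, and 1 CANNTG, the general form of an E-box, in capitals.
Nr1d1 upstream bases, chr11:98775378-98775627, minus strand: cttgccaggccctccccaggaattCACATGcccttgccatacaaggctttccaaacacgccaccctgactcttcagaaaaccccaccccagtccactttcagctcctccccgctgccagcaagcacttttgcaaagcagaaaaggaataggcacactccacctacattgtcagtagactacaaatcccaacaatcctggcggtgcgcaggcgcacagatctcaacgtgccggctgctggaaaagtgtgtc

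At the other 9 genes edgeR called 0 of 81 peaks between genotypes. At an unadjusted p under 0.05, 6 of the 81 were lower and 6 higher in CC, and 7 lower and 6 higher in CB, to be read beside the shares of all peaks at that threshold given above. DESeq2 called 1 lower and 2 higher in CC, beside 4.55% of all peaks called, and 0 lower and 2 higher in CB, beside 6.13%. The *Tef* peak with the large population difference had log2 fold changes of HOMO over WT of 0.01 (SE 0.15; edgeR adjusted p = 0.977) in CC and 0.14 (SE 0.13; adjusted p = 0.611) in CB. A few peaks came near the threshold and were picked out after their values were seen. The strongest *Bhlhe40* peak had 36.4, 48.5 and 41.4 CPM in HOMO CC against 35.2, 33.5 and 27.8 CPM in WT CC, and 46.6, 47.4 and 42.5 CPM in HOMO CB against 37.3, 35.7 and 30.8 CPM in WT CB. Its groups did not overlap in either population, and it missed the threshold at 0.41 (SE 0.12; edgeR adjusted p = 0.0649) in CC and 0.40 (SE 0.12; adjusted p = 0.0564) in CB. DESeq2 called it in both, with adjusted p = 0.0478 in CC and 0.0356 in CB, and edgeR called it in CC without WT CB 3 (0.0415) or HOMO CC 1 (0.0236) and in CB without WT CC 3 (0.0367) or HOMO CC 1 (0.0377). The weak *Hlf* peak 27146 bp upstream had 3.25, 2.38 and 2.62 CPM in HOMO CC against 1.71, 1.81 and 1.59 CPM in WT CC, and 3.54, 2.33 and 3.92 CPM in HOMO CB against 1.46, 1.60 and 1.92 CPM in WT CB. Its groups were apart in both populations, at 0.65 (SE 0.28; edgeR adjusted p = 0.223) in CC and 0.94 (SE 0.27; adjusted p = 0.0525) in CB, where DESeq2 gave an adjusted p of 0.0472 and edgeR 0.0435 without HOMO CC 1. The *Tef* peak 9733 bp beyond the gene had 7.54, 5.03 and 7.63 CPM in HOMO CC against 8.85, 10.7 and 11.4 CPM in WT CC, at -0.64 (SE 0.19; edgeR adjusted p = 0.0652), with an adjusted p of 0.0280 in DESeq2 and of 0.0474 in edgeR without HOMO CC 1. The distal *Bhlhe40* peak 43962 bp away had 0.49 (SE 0.15; edgeR adjusted p = 0.0856) in CC, with an adjusted p of 0.0456 in DESeq2 and of 0.0487 in edgeR without HOMO CC 1. The genotype effect did not differ detectably between the populations at any of the 86 peaks. The test of the difference called 0 of 86 after adjustment in edgeR and in DESeq2, and 0 of 86 had an unadjusted p under 0.05. Over all peaks 0 were called and 810 (1.18%) had an unadjusted p under 0.05. That share is smaller than the threshold itself, so these unadjusted counts are conservative. The test leaves out the pairing of CC with CB. With the library-number term 0 of all peaks were called after adjustment, with smaller standard errors. At the *Bhlhe40* peak 21609 bp away the difference had an SE of 0.25 with that term and of 0.57 without it.

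The wider clock machinery, 23 further genes with 134 peaks between them, was compared in the same way. In CC against CB 4 peaks rose and 2 fell in HOMO, and 3 rose and 3 fell in WT, which is 4.48% in each beside the 7.22% and 5.43% of all peaks above. With the library-number term that pairs CC with CB the counts were 28 in HOMO, beside 22.2% of all peaks, and 28 in WT, beside 22.1%. The median log2 fold change was -0.05 in HOMO and -0.04 in WT. A distal peak 46344 bp from *Nampt*, the enzyme of NAD salvage that feeds back on the clock, had 5.32, 5.25 and 4.83 CPM in HOMO CC against 1.96, 2.25 and 2.15 CPM in HOMO CB, and 6.52, 6.02 and 4.91 CPM in WT CC against 1.76, 2.98 and 3.88 CPM in WT CB. It rose, at 1.24 (SE 0.25; edgeR adjusted p = 0.00416) in HOMO and 0.99 (SE 0.25; edgeR adjusted p = 0.0223) in WT. Another *Nampt* peak, 24522 bp away, rose in WT at 1.24 (SE 0.25; edgeR adjusted p = 0.00559), with 5.90, 4.57 and 4.68 CPM in WT CC against 2.34, 1.83 and 2.09 CPM in WT CB. A peak inside *Rora*, whose product activates through ROR elements, had 12.4, 13.4 and 12.6 CPM in HOMO CC against 5.89, 7.62 and 7.11 CPM in HOMO CB and rose at 0.87 (SE 0.18; edgeR adjusted p = 0.00484), with 0.58 (SE 0.18; adjusted p = 0.0722) in WT, where the paired fit gave 0.53 (SE 0.13; edgeR adjusted p = 0.00222). A gene-end peak of *Csnk1e*, a kinase of PER proteins, fell at -0.57 (SE 0.14; edgeR adjusted p = 0.0188) in HOMO and -0.59 (SE 0.15; adjusted p = 0.0208) in WT. A weak peak in *Fbxw11*, which marks PER for degradation, rose in HOMO at 1.34 (SE 0.31; edgeR adjusted p = 0.0110). A peak in the deubiquitinase gene *Usp2* fell in WT at -0.41 (SE 0.11; adjusted p = 0.0262). The T cell marker sums given above moved with this contrast here too, and their part was not tested.

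The count over these 134 peaks was 2 in HOMO without HOMO CC 2 or HOMO CB 3, beside 2.94% and 3.58% of all peaks. In WT it was 3 without WT CB 1, 1 without WT CC 1 or WT CC 2 and 0 with both WT libraries numbered 2 left out. Over all peaks the WT shares were then 1.89%, 2.94%, 2.28% and 0.767%, in the same order. The calls at *Rora* and at the *Nampt* peak 46344 bp away in HOMO passed without any 1 of the 12 libraries. In WT that *Nampt* call was lost without WT CB 1 (edgeR adjusted p = 0.141), WT CC 1 (0.0851), WT CB 2 (0.0583) or WT CC 2 (0.0803). The *Fbxw11* call was lost without HOMO CC 2 (edgeR adjusted p = 0.0727) or HOMO CB 3 (0.0558). The *Csnk1e* call was lost in HOMO without HOMO CC 1 (0.0632), HOMO CB 2 (0.0682), HOMO CC 2 (0.102) or HOMO CB 3 (0.0874). In WT it was lost without WT CC 1 (0.0936), WT CC 2 (0.112) or WT CB 3 (0.0888), and the *Usp2* call without WT CB 1 (0.0780), WT CC 1 (0.0701), WT CB 2 (0.0733), WT CC 2 (0.100) or WT CC 3 (0.0517). The WT call at the *Nampt* peak 24522 bp away was lost with both WT libraries numbered 2 left out (0.0642).

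In HOMO against WT, 3 of the 134 peaks fell and 0 rose in CC (2.24%), and 5 fell and 2 rose in CB (5.22%), beside the 2.75% and 4.63% of all peaks above. At an unadjusted p under 0.05, 20 of the 134 were lower and 2 higher in CC, beside 9.95% and 7.22% of all peaks, and 21 were lower and 6 higher in CB, beside 12.5% and 7.26%. DESeq2 called 8 lower and 0 higher in CC, beside 4.55% of all peaks called, and 6 lower and 2 higher in CB, beside 6.13%. The median log2 fold change was -0.02 in CC and -0.04 in CB. The end peak of *Prkaa1*, the catalytic subunit of AMPK, which phosphorylates CRY proteins, had 8.91, 10.7 and 10.7 CPM in HOMO CB against 17.0, 15.9 and 17.5 CPM in WT CB and fell at -0.72 (SE 0.14; edgeR adjusted p = 0.00702). In CC it had 9.46, 11.1 and 9.83 CPM in HOMO against 13.2, 14.7 and 15.2 CPM in WT, at -0.50 (SE 0.14; edgeR adjusted p = 0.0590), where DESeq2 gave an adjusted p of 0.0194. The gene-end peak of *Fbxw11* fell in both, with 22.2, 22.3 and 24.0 CPM in HOMO CC against 31.9, 29.1 and 31.2 CPM in WT CC, and 26.7 CPM in each of the 3 HOMO CB libraries against 37.2, 34.8 and 37.5 CPM in WT CB. The log2 fold change was -0.42 (SE 0.10; edgeR adjusted p = 0.0258) in CC and -0.45 (SE 0.10; adjusted p = 0.0116) in CB. The *Nampt* peak 24522 bp away, which rose in CC in WT, fell in HOMO CC, with 3.11, 2.27 and 1.88 CPM against the WT CC values above, at -1.14 (SE 0.25; edgeR adjusted p = 0.0188). *Btrc*, which encodes the other F-box protein that marks PER for degradation, had a peak inside the gene that fell in CC at -0.47 (SE 0.12; edgeR adjusted p = 0.0343) and in CB at -0.43 (SE 0.12; edgeR adjusted p = 0.0366). A second peak nearby fell in CB at -0.83 (SE 0.20; edgeR adjusted p = 0.0199). The 2 peaks that rose in CB, picked out after their values were seen, were weak. A further peak inside *Btrc* rose at 1.10 (SE 0.30; edgeR adjusted p = 0.0417). The other lay inside *Gsk3b*, at 0.85 (SE 0.24; edgeR adjusted p = 0.0490).

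The named falls too rested on single libraries, except that of *Prkaa1* in CB, which passed without any 1 of the 12. For the peaks that rose, left-out libraries are not given peak by peak. The *Fbxw11* call was lost in CC without WT CC 1 (edgeR adjusted p = 0.103), WT CC 2 (0.0539), WT CC 3 (0.0701), HOMO CC 2 (0.172) or HOMO CC 3 (0.0780), and in CB without WT CB 1 (0.0632), HOMO CB 2 (0.0790) or HOMO CB 3 (0.0606). The *Nampt* call was lost without WT CC 1 (0.0871), HOMO CC 2 (0.143) or HOMO CC 3 (0.128). The call at the first *Btrc* peak in CC was lost without WT CB 1 (0.0529), WT CC 1 (0.101), WT CC 2 (0.0980), WT CC 3 (0.0774), HOMO CB 2 (0.0505), HOMO CC 2 (0.223) or HOMO CC 3 (0.125). In CB the call at that peak was lost without WT CB 1 (0.144), WT CC 1 (0.0521), WT CB 2 (0.0860), WT CC 2 (0.0518), HOMO CB 2 (0.123), HOMO CC 2 (0.0507) or HOMO CB 3 (0.186). The call at the second *Btrc* peak was lost without HOMO CB 2 (0.114), HOMO CB 3 (0.0863), WT CB 1 (0.110) or WT CB 2 (0.0598). The count in CC was 0 without WT CC 1, HOMO CC 2 or HOMO CC 3, 1 without WT CC 2 or WT CC 3, and 6 without HOMO CB 1 or HOMO CC 1. Over all peaks the shares called in CC were then 0.48%, 0.0247%, 0.319%, 0.875%, 1.48%, 3.63% and 4.97%, in the same order. The count in CB was 1 without WT CB 1 or HOMO CB 2, 2 without HOMO CB 3, 3 without WT CB 2, and 4 without WT CC 1, WT CC 2, WT CB 3, HOMO CB 1 or HOMO CC 2. The shares of all peaks called in CB were then 1.01%, 0.496%, 1.17%, 3.2%, 3.72%, 3.79%, 3.13%, 5.42% and 3.62%, in the same order.

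The pattern of the distal *Tef* peak was compared with that of 14300 gene-end peaks over the 12 libraries, on log2 CPM. Pearson's r was highest for peaks at *Lsm14a* (0.956), *Tgfa* (0.952), *Npm2* (0.951), *Hes6* (0.947) and *Cep131* (0.943). *Tgfa*, which encodes a growth factor, had 10.1, 9.38 and 7.82 CPM in HOMO CC against 20.7, 16.4 and 19.0 CPM in HOMO CB, and 10.8, 8.61 and 10.3 CPM in WT CC against 19.7, 16.5 and 16.5 CPM in WT CB. *Hes6* encodes a basic helix-loop-helix factor, and the midpoint of its peak lay 1821 bp from *Per2*. That peak had 37.6, 35.9 and 38.3 CPM in HOMO CC against 44.9, 45.5 and 44.3 CPM in HOMO CB, a much smaller difference. As at the *Tef* peak, all CC libraries lay below all CB libraries, but within the groups the order of libraries was not alike. The libraries fall into 2 populations, and all these peaks come from the same libraries, so these values of r describe the likeness only.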

How the data were processed

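Omni-ATAC-seq counts were analysed in 12 libraries. The deposited values are raw counts per peak on mm10, and per the submitters' processing notes BWA, FastQC, deepTools and R 4.2.1 were used, with no roles given. Neither the peak caller, duplicate handling, the Tn5 offset nor pooling is known, being not given in the sources used here. Whether regions were called on pooled libraries decides which weak sites could be counted at all.

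Peaks were assigned to the nearest of 21631 protein-coding RefSeq spans (GRCm38.p6, the assembly of mm10) within 50 kb, which placed 64044 peaks (93.2%). A gene-end peak has its midpoint within 1 kb of an end of a gene. The table carries no strand, and starts came from the promoter table. The members and gene lists were chosen with earlier results of these data known. Named peaks were, for each gene, its strongest gene-end peak, the peak with the largest mean CC against CB difference and those called between genotypes, and for other clock genes up to 3 per contrast, and further peaks were named after their values were seen.

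Counts were fitted with edgeR 4.0.16 (R 4.3.3) with TMM factors of 0.954 to 1.05, 1 mean per group over the 12 libraries, robust quasi-likelihood dispersions (common biological coefficient of variation 0.142) and two-sided tests, adjusted by Benjamini-Hochberg over all 68689 peaks at a threshold of 0.05. filterByExpr removed 0 peaks. Printed CPM values are not logged, and log2 CPM used a prior count of 2. DESeq2 1.42.0, its size factors, a minimum of 10 counts, a depth covariate, a library-number term, a 10 kb limit and left-out libraries were alternatives. Fits were tested on simulated data. Other software was data.table, version 1.17.8, pandas 2.3.3, numpy 2.4.6, matplotlib 3.10.9 and Python 3.11.15.

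To check whether equal library numbers pair libraries, each peak's deviation from its group mean was correlated between libraries. For CC and CB of a genotype r was 0.21 to 0.52 in the 6 pairs of equal number, against -0.34 to 0.12 in the 12 of unequal number, so the paired counts stand beside the CC against CB counts. The source of the pairing is not stated in the labels. Standard errors and group overlaps printed for CC against CB leave out the pairing, unless the library-number term or the paired fit is named.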

Additional observations from a re-analysis of the deposited data

How the results depend on the processing

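No result changed direction where it was called. The count for the difference of genotype effects was 0 in every alternative. The other counts are given in this order: clock and PAR bZIP peaks for HOMO against WT in CC (2 as reported) and in CB (3), and for CC against CB in HOMO (12) and in WT (6), then the other clock genes for HOMO against WT in CC (3) and in CB (7), and for CC against CB in HOMO (6) and in WT (6). The first 4 counts are out of 86 peaks and the last 4 out of 134. Shares of all peaks follow the same order of contrasts. With DESeq2 the counts were 7, 6, 13, 7, 8, 8, 7 and 8, beside 4.55%, 6.13%, 8.24% and 6.64%. With log2 library total as a covariate they were 9, 13, 19, 16, 12, 19, 11 and 13, beside 8.42%, 11.8%, 13.1% and 11.4%. With the replicate block they were 10, 11, 27, 27, 13, 21, 28 and 28, beside 10.4%, 13.2%, 22.2% and 22.1%. Across genotypes equal numbers were not taken as pairs, since not every pair passed an r of 0.1 and no label ties them, though equal numbers ran higher (r of -0.01 to 0.40 over 12 pairs, against -0.30 to 0.18 over 24), and the block raised calls over all peaks to 10.4% in CC and 13.2% in CB. Within 10 kb the counts were 2, 3, 8, 3, 2, 6, 5 and 3, out of the fewer peaks inside that limit. After the data were seen, 2 settings were added. Without both HOMO libraries numbered 1 the counts were 7, 5, 7, 7, 6, 7, 4 and 8, beside 6.47%, 7.14%, 5.28% and 7.31%. Without both WT libraries numbered 2 they were 0, 2, 11, 1, 0, 3, 6 and 0, beside 0.473%, 2.42%, 6.48% and 0.767%. Leaving out each library gave 0 to 6, 0 to 6, 6 to 14, 3 to 9, 0 to 6, 1 to 8, 2 to 7 and 1 to 8. Over all peaks it gave 0.0247% to 4.97%, 0.496% to 5.98%, 2.94% to 8.05% and 1.89% to 6.46%. With DESeq2's size factors in edgeR or a minimum of 10 counts, each count stayed within 1.5 times. The causes were not tested. The Tef peak stayed between -1.94 and -1.68 in all alternatives. The Nr1d1 peak 7502 bp upstream, at 1.03 to 4.27 CPM, rests on few reads in the shallow libraries.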
